A study of Mus musculus with 8 samples.

Results

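The genes described here encode the nuclear subunits of the oxidative phosphorylation complexes. They were chosen by gene symbol alone, as all symbols of the Nduf (a, b, c, s and v), Sdh, Uqcr, Cox4 to Cox8 and Atp5 series, and 86 of the 23284 symbols in the deposited tables matched. Complex I contributed 38 genes, complex II 4, complex III 8, complex IV 19 and complex V 17. Of these 86 genes, 81 reached a mean of 1 FPKM (a fragment count divided by the length of the exons and by the depth of the library) over the 8 libraries and were tested. The 5 genes below that level were Cox6a2, Cox7b2, Cox8b, Cox8c and Ndufa4l2. The name also drew in 3 genes that are not subunits: Cox4nb, a member of an endoplasmic reticulum membrane complex, and Atp5s and Atp5sl, which serve assembly. By symbol alone, Cox4nb is counted with complex IV and the other genes with complex V. Without these 3, the genes called higher than in naïve cells numbered 48, 28 and 56 of 78 in Th1, Th2 and Th17 cells, the same as with them.

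The libraries came from mouse CD4 T cells of the DO11.10 transgenic strain, in which the T cells carry a receptor for an ovalbumin (OVA) peptide, and the mice of the study were 6 to 12 weeks old. Naïve CD4 T cells were sorted from spleen as CD44low CD62Lhi cells and sequenced without culture. Effector Th1, Th2 and Th17 cells were grown from such cells for 6 days in the presence of 0.3 µM OVA peptide and splenocytes that had been depleted of T cells and irradiated. For Th1 cells the medium held IL-2, IL-12 and an antibody against IL-4. For Th2 cells it held IL-2, IL-4 and an antibody against IFNγ. For Th17 cells it held IL-6, IL-1β, IL-23 and both antibodies, and IL-2 is not listed for them. Each of the 4 groups held 2 libraries. Nothing in the labels ties the libraries to separate animals, so the p-values measure the spread between these libraries, which may be technical. All subsets came from the same culture period and the same peptide, so differentiation, activation and culture cannot be told apart in the comparisons with naïve cells. In bulk RNA, more cells of one kind and more RNA per cell cannot be told apart either.

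The depth implied by the confidence limits of the FPKM values was 14094284 to 14469157 fragments in naïve libraries and 16708672 to 21051348 in effector libraries. Replicates correlated at r = 0.953 to 0.960 over the genes tested. Summed marker lists of 4 genes each were highest in the libraries of their label. The Th1 list reached 907 to 1048 FPKM in Th1 libraries, the Th2 list 384 to 417 in Th2 libraries and the Th17 list 1395 to 1425 in Th17 libraries. The naïve list reached 1048 to 1057 in naïve libraries against 120 to 374 in the others. The Th1 list also summed to 124 to 144 FPKM in Th17 libraries. Its member Cxcr3 was higher in Th17 (11.3 and 11.5 FPKM) than in Th1 libraries (8.01 and 9.35). The T cell list (Cd3e, Cd4 and Lck) summed to 1172 to 1196 FPKM in naïve and 585 to 839 in effector libraries. The CD8 T cell list (Cd8a and Cd8b1) summed to 54.5 to 93.4 FPKM in naïve libraries and 8.94 to 13.0 in effector libraries, almost all of it Cd8b1. The erythroid list (4 genes) summed to 8.40 to 8.41 FPKM in naïve libraries and 0.242 to 0.916 in effector libraries. The B cell, monocyte and macrophage, dendritic cell and neutrophil lists stayed at or below 26.0 FPKM in every library. The part of such cells in the differences from naïve cells was not tested.

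In oxidative phosphorylation, complex I (NADH dehydrogenase) and complex II (succinate dehydrogenase) pass electrons from NADH and succinate to ubiquinone, complex III passes them to cytochrome c and complex IV (cytochrome c oxidase) to oxygen. Complexes I, III and IV pump protons across the inner mitochondrial membrane, and complex V (ATP synthase) uses their return to make ATP. All but complex II are built from subunits of both the nuclear and the mitochondrial genome. Only nuclear genes are described, since transcripts of the mitochondrial genome were not analysed here. Naïve T cells are known to rest on oxidative metabolism, while activated T cells enlarge their mitochondria and also turn to aerobic glycolysis.

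Promoters of many nuclear subunit genes carry short words that the factors NRF1, GABP (an ETS family factor) and YY1 bind. RefSeq promoters (GRCm38.p6, 250 bases before to 50 after the start) were at hand for 70 of the 86 genes, 68 of them among the genes tested. The NRF1 word GCATGCGC lay on either strand in 10 of the 68 (14.7%), against 6.4% of 7834 other tested genes and 3.05% of all 27025 genes with a promoter. The ETS word CCGGAAG lay in 16 (23.5%), against 21.6% of the other tested genes and 9.93% of all genes with a promoter. The YY1 word AAGATGGCG lay in 8 (11.8%), against 3.8% and 1.64%. Where the NRF1 word is followed on the other strand by itself, as in GCGCATGCGC, the gene was counted once. The 5 windows that follow are the 120 bases before the start, written 5′ to 3′ on the gene's strand with these words in capitals. They show the paired isoforms Cox6b1 and Cox6b2 and the isoform Cox7a1, whose levels differ most between groups, beside Sdhd and Atp5k, which hold an ETS and an NRF1 word. The windows lie at chr7:30626115-30626234 (Cox6b1, minus strand), chr7:4753095-4753214 (Cox6b2, minus strand), chr7:30184051-30184170 (Cox7a1, plus strand), chr9:50603850-50603969 (Sdhd, minus strand) and chr5:108434400-108434519 (Atp5k, minus strand).
Cox6b1: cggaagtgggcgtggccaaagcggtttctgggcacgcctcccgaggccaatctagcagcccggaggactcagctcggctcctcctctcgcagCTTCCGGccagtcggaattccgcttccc
Cox6b2: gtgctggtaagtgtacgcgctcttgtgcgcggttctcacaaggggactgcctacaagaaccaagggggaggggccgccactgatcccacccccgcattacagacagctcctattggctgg
Cox7a1: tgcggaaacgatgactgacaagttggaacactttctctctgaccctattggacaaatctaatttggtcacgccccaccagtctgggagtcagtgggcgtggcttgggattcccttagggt
Sdhd: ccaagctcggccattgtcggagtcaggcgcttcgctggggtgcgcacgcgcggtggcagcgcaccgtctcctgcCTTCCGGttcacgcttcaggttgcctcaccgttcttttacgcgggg
Atp5k: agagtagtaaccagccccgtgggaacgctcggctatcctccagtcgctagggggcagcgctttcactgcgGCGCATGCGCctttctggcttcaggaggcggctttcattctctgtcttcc

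The first question was how the subunits differ between naïve CD4 T cells and each effector subset. More of them were higher than lower in every subset, and the median difference was highest in complex IV, cytochrome c oxidase. Of the 81 genes, 48 (59.3%) rose and 4 (4.94%) fell in Th1 cells, while 33.8% of all 11198 genes tested were higher and 33.5% lower. In Th2 cells, 28 (34.6%) were higher and 9 (11.1%) lower, beside 31.8% and 38.7% of all genes, so the share of subunits called higher was near that of all genes. In Th17 cells, 56 (69.1%) were higher and 1 (1.23%) lower, beside 37.5% and 29.8%. The median difference of the 81 genes on the log2(FPKM + 1) scale was 0.47 for Th1, 0.23 for Th2 and 0.49 for Th17 cells, against -0.014, -0.11 and 0.077 over all genes tested. These calls are those of limma over all 8 libraries, with Benjamini-Hochberg adjustment over the 11198 genes and a threshold of 0.05. The 3 comparisons share the naïve libraries.

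The calls depended on how the libraries were put on a common scale. Scaling libraries to equal medians moved the median of all genes in the Th2 comparison from -0.11 to 0.0016. It gave 39 subunit genes higher and 6 lower in Th2 cells (86.7% of the calls higher, against 75.7% without scaling). Of all 11198 genes tested, 4001 were then higher and 3807 lower (51.2% of the calls higher, against 45.1% without scaling). Quantile normalization moved the median of all genes from -0.014 to -0.13 in the Th1 and from 0.077 to -0.12 in the Th17 comparison. It left 33 subunit genes higher and 10 lower in Th1 cells (76.7% higher, against 92.3%), and 36 and 6 in Th17 cells (85.7%, against 98.2%). Of all genes tested, 3230 were then higher and 4310 lower in Th1 cells, and 3408 and 4305 in Th17 cells. The shares of those calls that were higher were 42.8% and 44.2%, against 50.3% and 55.7% without it. No difference of a gene named here that passed the threshold changed sign under any of the 19 alternatives. Leaving out naïve replicate 2 lowered the count of genes higher in Th2 cells to 18 and that of Th17 cells to 33, and leaving out Th17 replicate 2 lowered the latter to 36. A fit blocked on replicate number called 59 subunit genes higher and 3 lower for Th17 cells, beside 4538 and 3688 of all genes tested. Among the genes described here, the block added Ndufa4 and Ndufa6 in Th1, Ndufa4 and Sdhc in Th2, and Ndufs5, Sdha and Cox4nb in Th17 cells. Of the calls of higher subunit genes, 31 for Th1, 17 for Th2 and 29 for Th17 cells passed in every alternative. How many of all genes tested did so was not counted, so these numbers cannot be set against all genes. Transcripts of 17 genes tested shared over 20% of their 50-base words with another gene (among the genes described, Ndufs3, Ndufs5, Uqcrc2, Cox5a, Cox5b, Atp5f1 and Atp5g2), and how their reads were divided is uncertain. Unless a sentence says otherwise, the calls of single genes given from here on passed in every alternative.

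**Figure D1:**
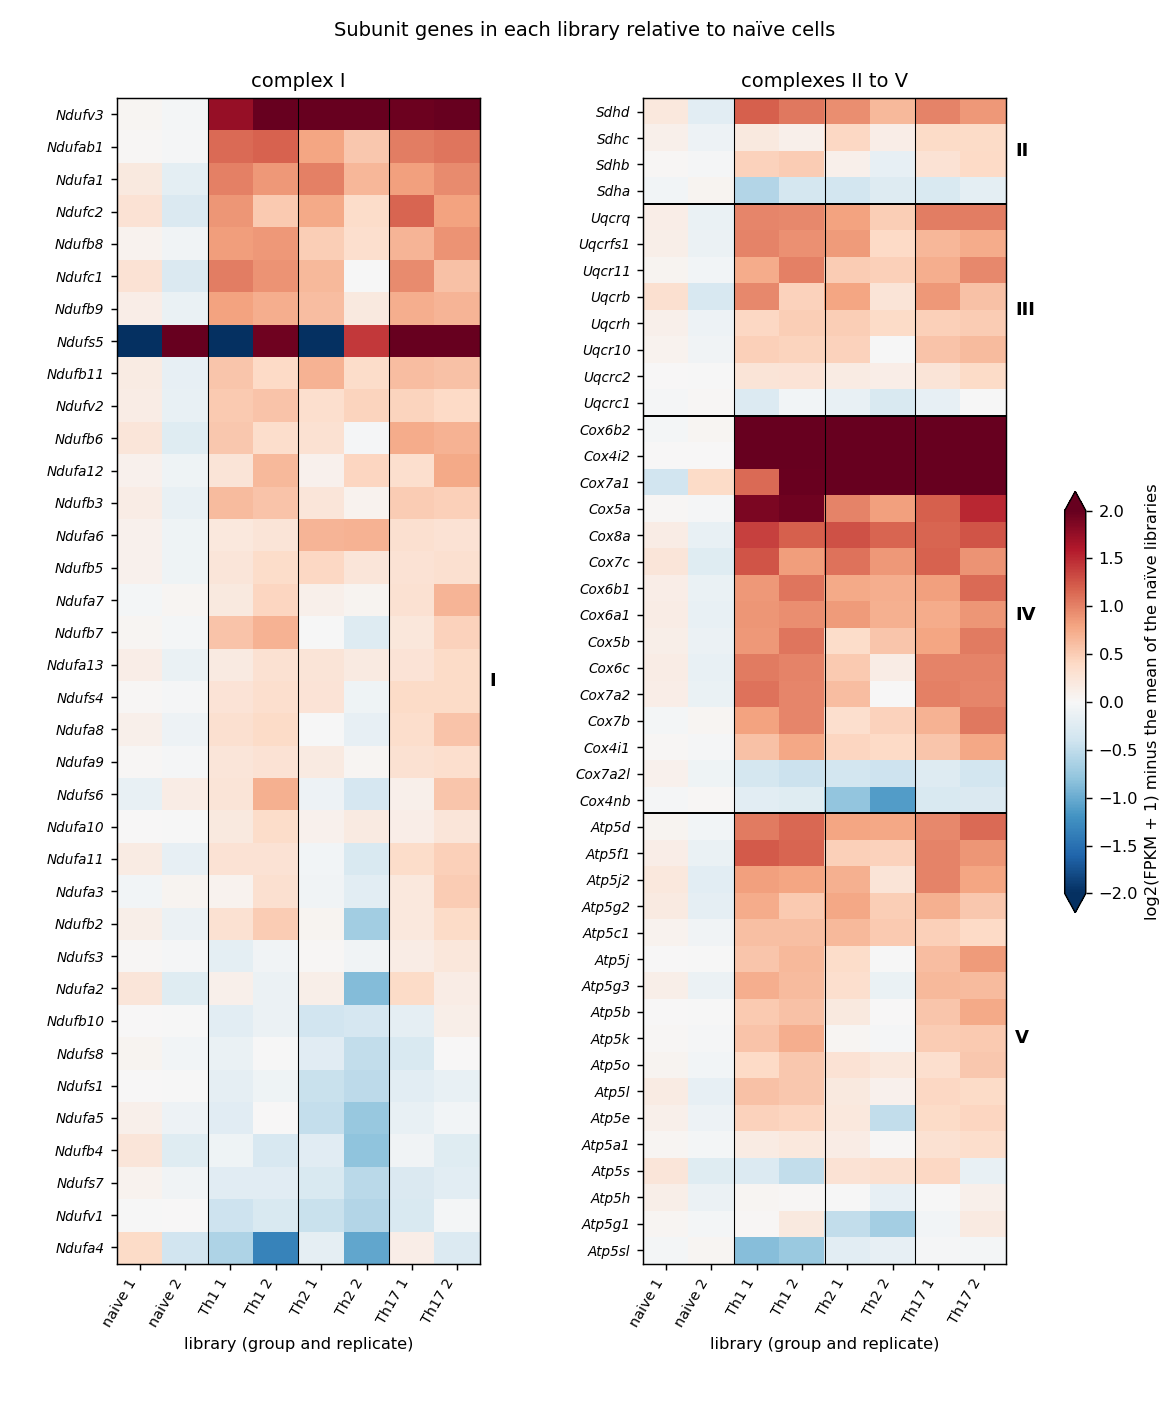
Each row is one of the subunit genes tested, all but 1 of the 81, and each column 1 library, with color for log2(FPKM + 1) minus the mean of the naïve libraries, cut at 2 in both directions. Reds outnumber blues in the effector columns, Cox6b2, Cox4i2, Cox7a1 and Ndufv3 run at the top of the scale, and Ndufs5 alternates between libraries of the same group.

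Summed over the 86 genes, the level stood at 7589 and 6693 FPKM in naïve, at 10561 and 10801 in Th1, at 9615 and 8424 in Th2 and at 10510 and 11115 in Th17 libraries. All effector libraries lay above both naïve libraries. As a share of all FPKM in a library, the genes took 1.51% to 1.60% in naïve, 2.06% to 2.25% in Th1, 1.91% in both Th2, and 2.10% to 2.30% in Th17 libraries. Complex IV had the highest ratio over naïve cells in each subset, 1.81 for Th1, 1.49 for Th2 and 1.75 for Th17 cells. Complex III followed with 1.49, 1.31 and 1.51, and complex V had 1.48, 1.16 and 1.47. Complex I gave 1.32, 1.2 and 1.43 and complex II 1.3, 1.14 and 1.28. In all 5 complexes the summed FPKM of every effector library lay above both naïve libraries. For complex V the lower Th2 library (2366 FPKM) lay only just above the higher naïve library (2365 FPKM). For complex I the mean sum went from 2355 FPKM in naïve to 2829 in Th2 cells, and Ndufv3 alone went from 107 to 479 FPKM. Most of the complex I rise in Th2 cells was thus that of a single gene.

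**Figure D2:**
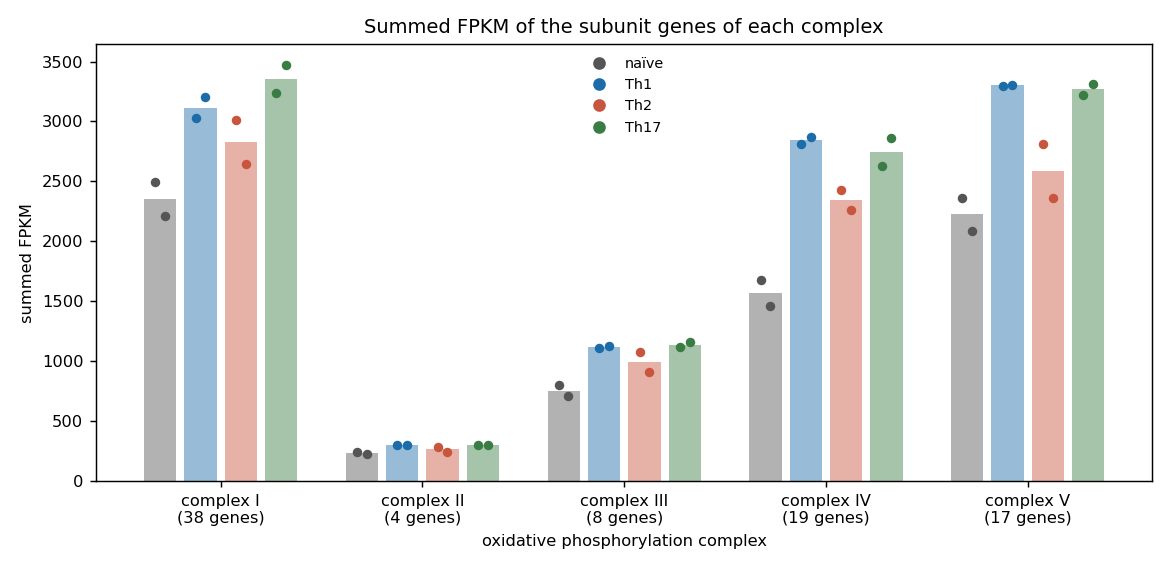
Bars are the mean summed FPKM of the subunit genes of each complex in each group and dots are the 2 libraries. The rise over naïve cells is largest in complex IV, from a mean of 1572 FPKM to 2842 (Th1), 2345 (Th2) and 2747 FPKM (Th17).

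In complex IV, 13, 11 and 13 of 15 genes rose in Th1, Th2 and Th17 cells, with median differences of 1.02, 0.75 and 0.99. Cox6b2 and Cox4i2 were among them, which passed the filter on low values only through effector libraries. The shares higher were 86.7%, 73.3% and 86.7%, beside 33.8%, 31.8% and 37.5% of all genes tested. The genes of complex IV called lower were the non-subunit Cox4nb in Th2 cells and Cox7a2l in each subset. Cox5a, whose product binds the Cox4 subunit on the matrix side, stood at 65.4 and 63.6 FPKM in naïve, at 241 and 252 in Th1, at 129 and 114 in Th2 and at 149.5 and 186 in Th17 libraries. Every effector library was above both naïve libraries and the Th1 libraries were the highest of all. The ratio of means over naïve was 3.82 in Th1 (log2 difference 1.92 ± 0.13, SE, adjusted p = 1.81e-05), 1.89 in Th2 (0.91, adjusted p = 0.000662) and 2.60 in Th17 cells (1.36, adjusted p = 9.24e-05). Cox8a, a small membrane-spanning subunit, stood at 191 and 156 FPKM in naïve, at 448 and 398 in Th1, at 419 and 389 in Th2 and at 388 and 412 in Th17 libraries. It rose in all subsets to levels that overlapped between them (ratios 2.44, 2.33 and 2.31, adjusted p = 0.00016, 0.000181 and 0.000205).

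Cox4i1, the ubiquitous Cox4 isoform and the most abundant complex IV transcript by mean FPKM, stood at 281 and 272 FPKM in naïve, at 416 and 475 in Th1, at 375 and 366 in Th2 and at 408 and 474 in Th17 libraries. Its ratio was 1.61 in Th1 (adjusted p = 0.00226) and 1.60 in Th17 cells (adjusted p = 0.00246). In Th2 cells it was 1.34 (adjusted p = 0.0185), a call lost in 5 alternatives, among them leaving out naïve replicate 2 or either Th2 library, with an adjusted p of up to 0.255. Cox6a1, an isoform outside heart and muscle, rose 1.87-fold, 1.71-fold and 1.75-fold in the 3 subsets (adjusted p = 0.000824, 0.0016 and 0.00137). Cox5b, which carries a zinc ion, rose 1.97-fold in Th1 and 1.89-fold in Th17 cells, and Cox7b 1.87-fold in both (adjusted p from 0.000917 to 0.00122 for these 4 calls). Their Th2 ratios were 1.38 and 1.32 (adjusted p = 0.0249 and 0.0367), and both calls were lost, among other alternatives, without naïve replicate 2 or Th2 replicate 2 (adjusted p up to 0.124 and 0.163).

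The paired isoforms of complex IV are genes of which 1 is used in most tissues and the other in few. Cox6b2, known as the testis form of the Cox6b subunit that helps the enzyme dimerize, stood at 0.683 and 0.758 FPKM in naïve, at 22.7 and 20.5 in Th1, at 49.9 and 48.7 in Th2 and at 31.1 and 27.4 in Th17 libraries. The groups did not overlap and Th2 libraries were highest. Its differences from naïve were 3.72 ± 0.10 for Th1, 4.87 for Th2 and 4.13 for Th17 cells (adjusted p = 3.51e-07, 1.35e-07 and 2.45e-07). Cox6b2 has a naïve mean under 1 FPKM and entered the tests through the effector libraries in which it is high, so its differences describe these libraries and its p-values are no independent support. Its ubiquitous partner Cox6b1 stood far higher, at 183 and 154 FPKM in naïve, at 307 and 352 in Th1, at 286 and 279 in Th2 and at 297 and 368 in Th17 libraries. Cox6b1 rose 1.96-fold, 1.68-fold and 1.97-fold (adjusted p = 0.00111, 0.00354 and 0.00104), and its order among subsets was not that of Cox6b2.

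Cox4i2, known as the lung and hypoxia-induced form of the Cox4 subunit, was listed at 0 in both naïve libraries. It stood at 4.92 and 5.10 FPKM in Th1, at 6.96 and 9.39 in Th2 and at 11.05 and 11.3 in Th17 libraries, and since the naïve values are 0, no fold is given. Like Cox6b2, it passed the filter on low values through the effector libraries alone, and the same limit holds for its tests. The log2(FPKM + 1) differences were 2.59 ± 0.13, 3.18 and 3.61 (adjusted p = 4.87e-06, 1.49e-06 and 9.89e-07). Its level remained below 3% of that of Cox4i1 in every library.

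Cox7a1, known as the heart and muscle form, stood at 0.542 and 1.62 FPKM in naïve, at 3.43 and 6.93 in Th1, at 8.32 and 7.55 in Th2 and at 29.0 and 28.0 in Th17 libraries. Th17 libraries were far above all others, and within the naïve and the Th1 group the replicates differed by 2 times or more. The differences from naïve were 1.56 ± 0.32 for Th1, 2.15 for Th2 and 3.88 for Th17 cells (adjusted p = 0.00411, 0.000781 and 4.21e-05). Cox7a2, the form of most tissues, stood at 76.4 and 63.5 FPKM in naïve, at 149 and 137 in Th1, at 107 and 70.1 in Th2 and at 141 and 137 in Th17 libraries, and rose 2.05-fold in Th1 and 1.99-fold in Th17 cells (adjusted p = 0.00318 and 0.00378). In Th2 cells its libraries overlapped the naïve range. Cox6b2, Cox4i2, Cox7a1 and Ndufv3 shared no 50-base word of their transcripts with another gene and no exon overlapped another gene.

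Cox7a2l, whose product ties complexes III and IV into supercomplexes, moved the other way, from 323 and 284 FPKM in naïve to 238 and 224 in Th1, to 233 and 227 in Th2 and to 253 and 234 in Th17 libraries. All effector libraries were below both naïve libraries. The fall was by 0.39 in Th1 and in Th2 and by 0.31 in Th17 cells on the log2 scale (SE 0.11, adjusted p = 0.0179, 0.0157 and 0.0405). None of these 3 calls held without naïve replicate 1, and the Th17 call was lost in 8 alternatives (up to adjusted p = 0.0964, 0.0848 and 0.17). The forms Cox6a2, Cox8b, Cox8c and Cox7b2, known from muscle or testis, did not exceed 0.274 FPKM in any library.

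**Figure D3:**
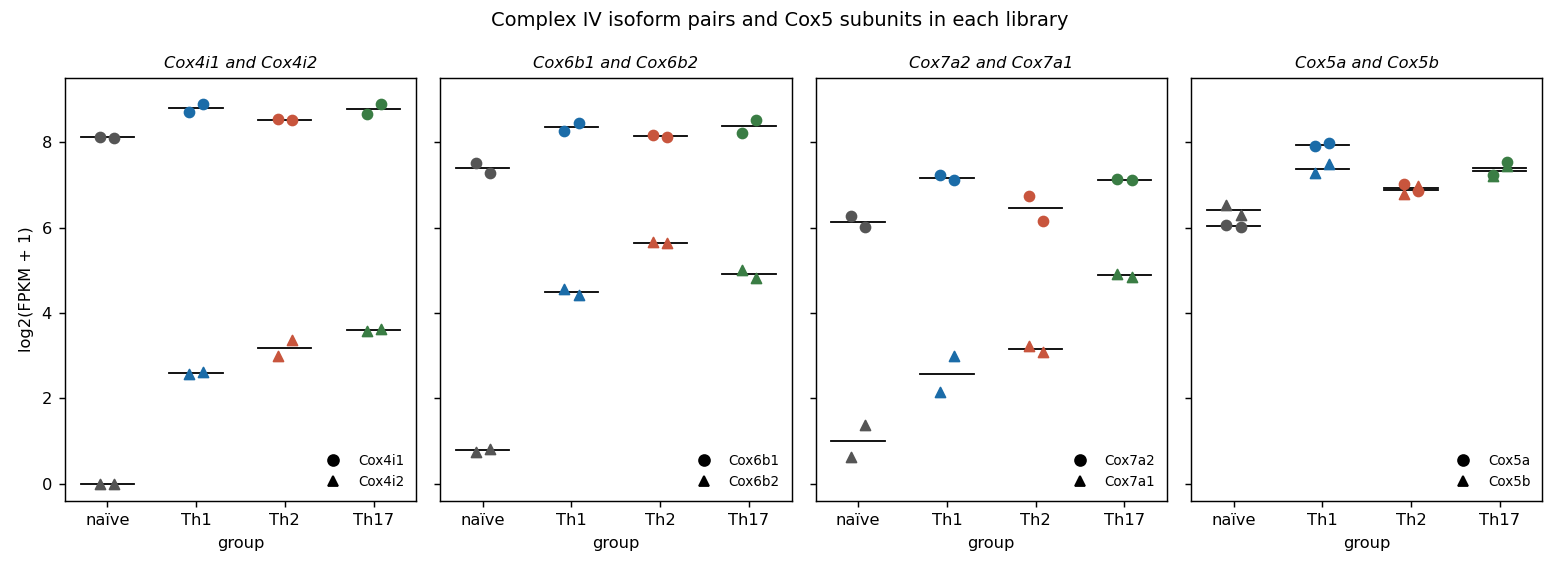
Points are log2(FPKM + 1) in each of the 8 libraries for 3 isoform pairs of complex IV and for Cox5a and Cox5b, and short lines are group means. The rarer isoforms Cox4i2, Cox6b2 and Cox7a1 rise from near 0 in naïve libraries, each to its own highest group, and stay below their partners.

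Complex I is the largest of the enzymes, with 7 nuclear core subunits that hold the flavin and iron-sulfur clusters and many accessory subunits around them. Of its 37 genes tested, 16 rose and 1 fell in Th1 cells, 8 rose and 5 fell in Th2 cells, and 22 rose in Th17 cells with none lower. The shares higher were 43.2%, 21.6% and 59.5%, beside 33.8%, 31.8% and 37.5% of all genes tested, so the Th2 share was below that of all genes. The shares lower were 2.7%, 13.5% and 0%, beside 33.5%, 38.7% and 29.8%. Most of the rises lay among the accessory subunits, which make up 30 of the 37 genes tested. Of these 30, 14, 7 and 20 were higher in the 3 subsets, with median differences of 0.33, 0.12 and 0.40. Of the 7 core subunits, 2, 1 and 2 were higher and 1, 3 and 0 lower, with medians of -0.13, -0.36 and -0.15. The difference between core and accessory subunits was not tested.

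Ndufv3, an accessory subunit beside the flavin-bearing tip, stood at 109.7 and 104 FPKM in naïve, at 358 and 455 in Th1, at 471 and 488 in Th2 and at 417 and 479 in Th17 libraries. It was the complex I gene with the largest called rise in each subset, with ratios of 3.81, 4.49 and 4.2 (log2 differences 1.91, 2.16 and 2.06, SE 0.14, adjusted p = 3.09e-05, 1.42e-05 and 1.91e-05). It also had the highest mean FPKM of complex I. Ndufa6, of the LYR family, was highest in Th2 cells and stood at 141 and 125 FPKM in naïve, at 155 and 160 in Th1, at 213 and 214 in Th2 and at 166 and 162 in Th17 libraries. It rose 1.61-fold in Th2 cells (adjusted p = 0.000702). Its Th17 ratio of 1.24 (adjusted p = 0.029) was not past the threshold in 8 alternatives, among them leaving out naïve replicate 2 or either Th1 or Th17 library. Ndufb7 was highest in Th1 libraries (137 and 150 FPKM, against 94.4 and 89.4 in naïve, 91.0 and 76.5 in Th2 and 108 and 127 in Th17) and rose 1.56-fold in Th1 cells (adjusted p = 0.00411).

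The core subunits did not move as 1 group. Ndufv1, which binds NADH and the flavin, stood at 40.1 and 40.5 FPKM in naïve, at 29.9 and 32.4 in Th1, at 29.2 and 26.4 in Th2 and at 32.3 and 39.3 in Th17 libraries. All effector libraries were below both naïve libraries, and the fall in Th2 cells was by 0.52 ± 0.12 (adjusted p = 0.00617). The fall in Th1 cells, by 0.36 (adjusted p = 0.0299), was lost on leaving out any naïve or Th1 library (up to adjusted p = 0.138). Its neighbor Ndufv2, with an iron-sulfur cluster, moved up, from 36.6 and 29.4 FPKM in naïve to 47.9 and 49.2 in Th1, to 41.9 and 45.0 in Th2 and to 45.2 and 43.8 in Th17 libraries. The Th1 ratio was 1.47 (adjusted p = 0.00514). The Th2 and Th17 ratios of 1.32 and 1.35 (adjusted p = 0.0204 and 0.0154) were both lost without naïve replicate 2, the first also without Th2 replicate 2 and the second without either Th17 library (up to 0.0936 and 0.0715).

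Ndufs1, the largest core subunit, stood at 27.4 and 27.1 FPKM in naïve and 19.7 and 18.6 in Th2 libraries, with the Th1 (23.9 and 25.7) and Th17 libraries (23.3 and 24.6) between them. It fell in Th2 cells by 0.49 ± 0.09 (adjusted p = 0.00179). Ndufs7, near the ubiquinone site, stood at 78.1 and 71.6 FPKM in naïve and 60.4 and 51.0 in Th2 libraries (ratio 0.74, adjusted p = 0.0117), lost without naïve replicate 1 or Th2 replicate 2 (up to 0.0589). Ndufs3 and Ndufs8 did not pass against naïve cells in the fit of all 8 libraries without the block. Ndufs3 ranged from 40.6 to 54.7 FPKM and Ndufs8 from 25.3 to 37.6 FPKM. Some alternatives also called Ndufs3 in Th1, Ndufs8 in Th2, Ndufs1 and Ndufv1 in Th17, and Ndufs7 in Th1 and Th17 cells. In the fit of all 8 libraries these differences were negative.

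A few complex I genes had values that the replicates did not agree on. Ndufs5 was listed at 0.0015 FPKM or less in replicate 1 of naïve, Th1 and Th2 cells and at 29.6, 20.4 and 13.7 FPKM in replicate 2, with 21.2 and 42.1 FPKM in Th17 libraries, so no group mean is given. Its transcripts shared 21.7% of their 50-base words with another gene, BC002163, and whether reads of Ndufs5 were assigned to another feature in the near-0 libraries was not tested. Ndufa4, today counted as a subunit of complex IV, stood at 217 and 127 FPKM in naïve, at 108 and 64.9 in Th1, at 147 and 80.6 in Th2 and at 182 and 137 in Th17 libraries. Replicate 1 was above replicate 2 in each group, and Ndufa4 passed the test against naïve cells in no subset without the replicate block and in Th1 and Th2 cells with it. Its partner isoform Ndufa4l2 did not exceed 0.09 FPKM. Ndufa5 stood at 37.8 and 32.8 FPKM in naïve and 25.1 and 20.5 in Th2 libraries, the largest fall of complex I in Th2 cells (by 0.61 ± 0.14, adjusted p = 0.00599).

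The 4 genes of complex II, which is also an enzyme of the tricarboxylic acid cycle, split. Sdhd, a membrane anchor at the ubiquinone site, stood at 54.9 and 41.0 FPKM in naïve, at 110.2 and 99.3 in Th1, at 90.9 and 75.3 in Th2 and at 95.1 and 87.0 in Th17 libraries. It rose 2.18-fold, 1.73-fold and 1.90-fold (log2 differences 1.12, 0.79 and 0.92, SE 0.16, adjusted p = 0.000819, 0.00417 and 0.00209). Sdha, the flavoprotein that oxidizes succinate, went from 66.4 and 72.2 FPKM in naïve to 45.6 and 54.2 in Th1, to 53.7 and 57.9 in Th2 and to 55.6 and 60.2 in Th17 libraries, all below both naïve libraries. Its fall in Th1 cells by 0.47 ± 0.12 (adjusted p = 0.00954) was lost without Th1 replicate 1 (adjusted p = 0.0613), and that in Th2 cells by 0.31 (adjusted p = 0.0475) was lost in 11 alternatives (up to 0.175). In Th17 cells Sdha did not pass in the fit without the replicate block (adjusted p = 0.0889). It passed with the block (adjusted p = 0.0195) and in another alternative.

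Sdhb, the iron-sulfur subunit, rose in Th1 cells from 63.1 and 61.6 FPKM to 86.5 and 89.3 (ratio 1.41, adjusted p = 0.00676), stood at 66.8 and 55.6 in Th2, around the naïve level, and at 76.7 and 82.4 in Th17 libraries. The Th17 ratio of 1.28 (adjusted p = 0.0286) was lost in 6 alternatives, among them without any naïve or Th17 library (up to 0.155). Sdhc, the other anchor, ranged from 50.6 to 72.8 FPKM over the libraries. In the fit of all 8 libraries without the replicate block it was called in Th17 cells only (ratio 1.31, adjusted p = 0.0298). This call was lost in 5 alternatives, among them without naïve replicate 2 or either Th17 library. In Th2 cells Sdhc passed with the block and in another alternative.

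In complex III, 6, 4 and 6 of 8 genes (75%, 50% and 75%) rose in Th1, Th2 and Th17 cells and none fell, with medians of 0.58, 0.47 and 0.65. Of all genes tested, 33.8%, 31.8% and 37.5% were higher and 33.5%, 38.7% and 29.8% lower. Uqcrq, a small subunit next to cytochrome b, stood at 93.9 and 78.3 FPKM in naïve, at 170 and 167 in Th1, at 151 and 121 in Th2 and at 176.2 and 175.5 in Th17 libraries. It had the largest called rise of the complex in each subset, 1.96-fold, 1.58-fold and 2.04-fold (adjusted p = 0.000738, 0.00474 and 0.000533). Uqcrfs1, the Rieske iron-sulfur protein, stood at 61.0 and 51.9 FPKM in naïve, at 113 and 107 in Th1, at 102 and 74.9 in Th2 and at 90.2 and 95.2 in Th17 libraries. Its ratios were 1.95 in Th1 and 1.64 in Th17 cells (adjusted p = 0.00166 and 0.00664), and 1.57 in Th2 cells (adjusted p = 0.0107), the last lost without naïve replicate 2 (adjusted p = 0.0606).

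The core proteins of complex III moved little. Uqcrc1 ranged from 55.5 to 69.9 FPKM over the libraries. It passed against naïve cells in no subset in the fit of all 8 libraries, though some alternatives called it in Th1 and Th2 cells. Uqcrc2 stood at 62.0 and 61.3 FPKM in naïve, 73.5 and 75.1 in Th1 and 73.8 and 81.0 in Th17 libraries (ratios 1.21 and 1.26, adjusted p = 0.0325 and 0.015). The Th1 call was lost in 6 alternatives, among them without any naïve or Th1 library (up to 0.389), and the Th17 call in 3, among them without Th17 replicate 2 (up to 0.217). Uqcrh, the hinge protein and the complex III transcript with the highest mean FPKM, stood at 254 and 221 FPKM in naïve and between 311 and 337 in all effector libraries (ratios 1.37, 1.36 and 1.4, adjusted p = 0.00954, 0.00996 and 0.0068). Its calls were lost under quantile normalization (adjusted p = 0.75, 0.341 and 0.135), and that in Th1 cells also without Th1 replicate 2.

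In complex V, 11, 4 and 12 of 17 genes (64.7%, 23.5% and 70.6%) rose in Th1, Th2 and Th17 cells, and the medians were 0.56, 0.14 and 0.43. Of all genes tested, 33.8%, 31.8% and 37.5% were higher, so the Th2 share was below that of all genes. The shares of complex V lower were 5.88%, 5.88% and 0%, beside 33.5%, 38.7% and 29.8% of all genes. In the catalytic F1 head, Atp5d, the delta subunit of the central stalk, stood at 154 and 142 FPKM in naïve, at 304 and 329 in Th1, at 255 and 254 in Th2 and at 288 and 326 in Th17 libraries. It rose 2.14-fold, 1.72-fold and 2.08-fold (adjusted p = 0.000133, 0.000629 and 0.000153). Atp5b, the catalytic beta subunit, stood at 275 and 270.4 FPKM in naïve, at 391 and 410.3 in Th1, at 312 and 275 in Th2 and at 403 and 460.1 in Th17 libraries. It rose 1.58-fold in Th17 (adjusted p = 0.00232) and 1.47-fold in Th1 cells (adjusted p = 0.00524), the latter lost under quantile normalization (adjusted p = 0.135). Atp5c1, the gamma subunit that turns in the head, rose 1.52-fold in Th1 and 1.5-fold in Th2 cells (adjusted p = 0.00161 and 0.0017) and was 1.35 times naïve in Th17 cells (adjusted p = 0.00745), lost under quantile normalization (0.0764). Atp5a1, the alpha subunit, ranged from 188 to 249.1 FPKM and was called in Th17 cells only (ratio 1.26, adjusted p = 0.0208), a call lost in 6 alternatives, among them without naïve replicate 2 or either Th17 library (up to 0.779).

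Outside the head, Atp5f1, the b subunit of the peripheral stalk, stood at 76.8 and 63.5 FPKM in naïve, at 166 and 158 in Th1, at 97.3 and 96.1 in Th2 and at 139 and 129 in Th17 libraries. The groups did not overlap and the ratios were 2.31, 1.38 and 1.92 (adjusted p = 0.000104, 0.00945 and 0.000345). The proton-carrying c subunit is made by 3 genes with the same mature protein. Atp5g1, the rarest of them, stood at 44.1 and 41.5 FPKM in naïve, at 43.6 and 48.9 in Th1, at 30.1 and 26.5 in Th2 and at 41.0 and 48.4 in Th17 libraries. It fell in Th2 cells by 0.58 ± 0.12 (adjusted p = 0.0042), and stood near the naïve level in Th1 and Th17 cells.

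Atp5g2 stood at 224 and 172 FPKM in naïve and between 275 and 338 in effector libraries (ratios 1.55, 1.55 and 1.54, adjusted p = 0.0154, 0.0146 and 0.0159). All 3 calls were lost without naïve replicate 2, without replicate 1 of the subset compared and under quantile normalization (up to 0.193). Atp5g3 stood at 218 and 183 FPKM in naïve, at 331 and 310 in Th1, at 253 and 183 in Th2 and at 315 and 311 in Th17 libraries (ratios 1.60 in Th1 and 1.56 in Th17, adjusted p = 0.0107 and 0.0129), and both calls were lost without naïve replicate 2 (up to 0.0717). Atp5e, the epsilon subunit and the complex V transcript with the highest mean FPKM, ranged from 225 to 438 FPKM and passed in no subset. The non-subunit Atp5sl, an assembly gene with the RefSeq symbol Dmac2, is counted with complex V by its Atp5 symbol alone. Atp5sl fell in Th1 cells from 20.6 and 21.6 FPKM to 11.3 and 12.2 (by 0.80 ± 0.08, adjusted p = 0.000153), while Th2 and Th17 libraries lay between 18.2 and 20.9 FPKM.

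**Figure D4:**
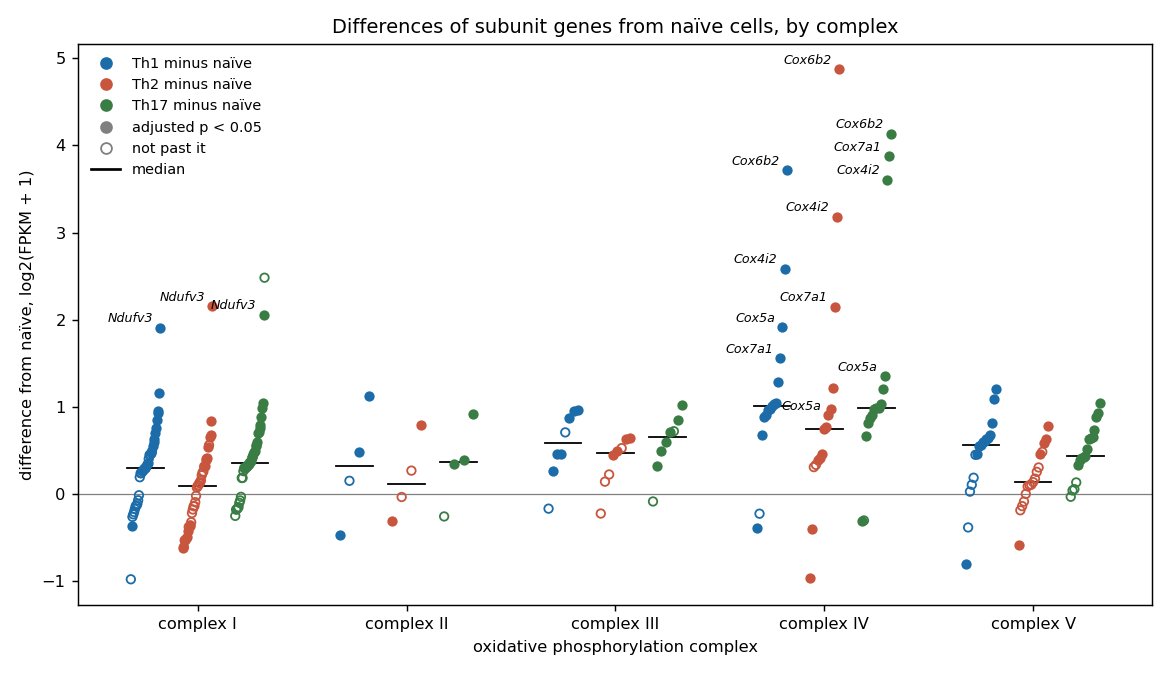
Each point is the difference of 1 subunit gene from naïve cells in log2(FPKM + 1), by complex and effector subset, filled where the adjusted p was under 0.05, and black lines are medians. Complex IV has the highest medians (1.02, 0.75 and 0.99) and the outlying isoforms, and the open point near 2.5 in complex I is Ndufs5.

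The second question was how the effector subsets differ from each other. Of the 81 genes, 23 were higher and 5 lower in Th1 than in Th2 cells (28.4% and 6.17%), while 27.4% and 16.9% of all genes were. In Th17 cells 25 were higher and 2 lower than in Th2 cells (30.9% and 2.47%), while 31.7% and 12% of all genes were. Without scaling, the shares called higher were thus near those of all genes. The medians of the 81 genes were 0.24 and 0.32, against 0.11 and 0.18 over all genes. Between Th1 and Th17 cells 1 gene was higher in Th1 and 5 lower (1.23% and 6.17%), beside 9.17% and 16% of all genes. Both comparisons with Th2 cells share the Th2 libraries.

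These counts moved with the libraries and the scale. Scaling to equal medians took the median of all genes in the Th17 comparison with Th2 from 0.18 to 0.024. It left 7 subunit genes higher and 3 lower (70% higher, against 92.6%), and quantile normalization 12 and 3 (80%). Of all 11198 genes tested, 2303 were higher and 2018 lower with equal medians, and 2256 and 2191 with quantile normalization. The shares of those calls that were higher were 53.3% and 50.7%, against 72.6% without scaling. Rescaling to a fixed sum left 0 subunit genes higher and 3 lower in Th1 than in Th17 cells, in place of 1 and 5. Of all genes tested it left 662 and 1141, in place of 1027 and 1788. Leaving out Th1 replicate 1, Th1 replicate 2 or Th2 replicate 2 brought the genes higher in Th1 than in Th2 cells from 23 to 13, 6 or 8. Leaving out Th2 replicate 2, Th17 replicate 1 or Th17 replicate 2 brought those higher in Th17 than in Th2 cells from 25 to 5, 16 or 4. With the replicate block the latter count was 39, and 4289 of all 11198 genes tested were higher in Th17 than in Th2 cells.

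The differences between subsets that passed in every alternative were few, and complex IV held most of the sizeable ones. Cox6b2 was lower in Th1 and in Th17 than in Th2 cells (ratios 0.44 and 0.59, adjusted p = 0.000167 and 0.00161). Cox7a1 was higher in Th17 than in Th2 cells (ratio 3.59, log2 difference 1.72 ± 0.32, adjusted p = 0.00574) and lower in Th1 than in Th17 cells (ratio 0.18, adjusted p = 0.00239). Cox4i2 was lower in Th1 than in Th17 cells (ratio 0.45, adjusted p = 0.00186). Cox5a was higher in Th1 than in Th2 cells (ratio 2.02, adjusted p = 0.00106). Cox5a was also the 1 gene higher in Th1 than in Th17 cells (ratio 1.47, adjusted p = 0.0209), a call lost in 5 alternatives, among them without either Th1 library or Th17 replicate 1 (up to 0.107).

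In complex V, Atp5g1 was higher in Th1 and Th17 than in Th2 cells (ratios 1.64 and 1.58, adjusted p = 0.00423 and 0.00638), and Atp5f1 was higher in Th1 than in Th2 cells (ratio 1.68, adjusted p = 0.00258). The non-subunit Atp5sl, placed with complex V by symbol alone, was lower in Th1 than in Th2 and Th17 cells (ratios 0.64 and 0.57, adjusted p = 0.00136 and 0.000825). In complex I, Ndufb7 was higher in Th1 than in Th2 cells (ratio 1.71, adjusted p = 0.00353). The non-subunit Cox4nb stood at 3.21 and 2.35 FPKM in Th2 libraries and between 4.89 and 6.39 in all others, and was higher in Th1 and Th17 than in Th2 cells (ratios 1.89 and 1.77, adjusted p = 0.00312 and 0.00551). In the fit of all 8 libraries without the replicate block, no gene of complex III passed in any comparison between subsets. Alternatives called some against Th2 cells. Uqcrq passed with the block, and Uqcrfs1 in Th1 against Th2 cells in another alternative but not with the block.

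The other genes of the pathway were taken from lists of assembly factors, electron carriers and donors, tricarboxylic acid cycle enzymes, and regulators of mitochondrial transcription and biogenesis. Among the regulators, more were lower than higher. Of 19 tested, 14, 12 and 11 were lower and 1, 2 and 2 higher in Th1, Th2 and Th17 cells, with a median difference of -0.51 in each. The shares lower were 73.7%, 63.2% and 57.9%, beside 33.5%, 38.7% and 29.8% of all genes tested. The shares higher were 5.26%, 10.5% and 10.5%, beside 33.8%, 31.8% and 37.5%. Polrmt, the RNA polymerase of mitochondria, stood at 11.9 and 15.2 FPKM in naïve, at 3.75 and 4.28 in Th1, at 4.67 and 4.92 in Th2 and at 5.38 and 7.02 in Th17 libraries (differences -1.52, -1.31 and -1.01, SE 0.15, adjusted p = 0.000132, 0.000241 and 0.000987). Ppargc1b, a coactivator of mitochondrial genes, stood at 2.83 and 4.68 FPKM in naïve and between 0.64 and 0.94 in effector libraries (adjusted p = 0.000499, 0.000581 and 0.000301). Myc, a growth factor-induced transcription factor and the 1 regulator called higher in Th1 cells, stood at 33.5 and 31.4 FPKM in naïve, at 216 and 227 in Th1, at 82.6 and 70.8 in Th2 and at 145 and 162 in Th17 libraries (differences 2.73, 1.21 and 2.20, SE 0.12, adjusted p = 1.91e-06, 8.1e-05 and 4.54e-06). Gabpb1, a subunit of GABP, stood at 15.8 and 17.6 FPKM in naïve and 20.6 and 23.1 in Th2 libraries (adjusted p = 0.0186), a call lost in 3 alternatives, among them without naïve replicate 1 (up to 0.165).

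Of 47 assembly factors tested, 10, 7 and 13 were higher and 21, 21 and 9 lower in Th1, Th2 and Th17 cells, with medians of -0.26, -0.32 and -0.037. The shares higher were 21.3%, 14.9% and 27.7%, all below the 33.8%, 31.8% and 37.5% of all genes tested. The shares lower were 44.7%, 44.7% and 19.1%, beside 33.5%, 38.7% and 29.8%, so the Th17 share was below that of all genes. With the replicate block, 15 assembly factors were lower in Th17 cells. Leaving out naïve replicate 1 or Th1 replicate 2 lowered the 21 of Th1 cells to 12 or 10, and leaving out Th17 replicate 2 lowered the 13 to 8. Cox17, which carries copper to complex IV, stood at 90.2 and 76.6 FPKM in naïve, at 285 and 254 in Th1, at 120.4 and 88.2 in Th2 and at 289 and 278 in Th17 libraries. It rose in Th1 and Th17 cells (differences 1.68 and 1.76, SE 0.17, adjusted p = 0.000123 and 9.06e-05). In Th2 cells Cox17 passed with the block (adjusted p = 0.0401), but not when replicates were not paired (adjusted p = 0.142). Sco2, another copper carrier for complex IV, went the other way, from 6.64 and 7.33 FPKM to 2.04 and 2.46 in Th1, to 1.2 and 1.41 in Th2 and to 2.13 and 3.27 in Th17 libraries (differences -1.3, -1.79 and -1.13, SE 0.16, adjusted p = 0.000402, 6.82e-05 and 0.000788). 2900010M23Rik, the complex III assembly factor Uqcc2, rose from 24.6 and 21.7 FPKM to between 37.1 and 60.6 in effector libraries (adjusted p = 0.00516, 0.00111 and 0.000871). Ndufaf4, for complex I, stood at 8.5 and 4.34 FPKM in naïve and between 1.51 and 3.26 in effector libraries (adjusted p = 0.0104, 0.0119 and 0.0319), and its calls were lost in 1, 2 and 7 alternatives, among them without Th1 replicate 2 for the Th1 call, and without naïve replicate 1 or Th2 replicate 2 for the Th2 call (up to 0.0652, 0.0694 and 0.158).

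Of 18 electron carriers and donors tested, 7, 4 and 10 were higher (38.9%, 22.2% and 55.6%, beside 33.8%, 31.8% and 37.5% of all genes tested) and 6, 6 and 5 lower (33.3%, 33.3% and 27.8%, beside 33.5%, 38.7% and 29.8%) in the 3 subsets, and 7 were higher in Th2 cells with the block. Etfb, which feeds electrons from fatty acid oxidation, rose from 26.1 and 24.6 FPKM to 56.2 and 66.7 in Th1, to 49.4 and 35.5 in Th2 and to 61.8 and 73.2 in Th17 libraries (adjusted p = 0.000698, 0.00949 and 0.0004). Gpd2, of the glycerol phosphate shuttle, rose in Th2 and Th17 cells (differences 1.26 and 1.04, SE 0.13, adjusted p = 0.000119 and 0.00034) and stood at 8.55 and 6.53 FPKM in Th1 against 6.32 and 5.5 in naïve libraries. Dhodh, the pyrimidine synthesis enzyme that reduces ubiquinone, fell from 11.2 and 10.1 FPKM to between 3.88 and 6.43 (adjusted p = 0.000254, 0.000223 and 0.00192). Coq2, of ubiquinone synthesis, fell in Th2 cells from 27.7 and 25.9 FPKM to 13.5 and 10.96 (adjusted p = 0.000549).

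Of 18 tricarboxylic acid cycle genes tested, 5, 3 and 6 were higher and 4, 6 and 3 lower in the 3 subsets. The shares higher were 27.8%, 16.7% and 33.3% and the shares lower 22.2%, 33.3% and 16.7%, all below those of all genes tested given above. Cs, citrate synthase, rose from 52.3 and 48.7 FPKM to between 75.9 and 104 (adjusted p = 0.000588, 0.000671 and 7.01e-05). Idh2, the NADP-dependent isocitrate dehydrogenase, fell from 42.0 and 46.1 FPKM to between 14.8 and 22.9 (differences -1.07, -0.91 and -1.37, SE 0.13, adjusted p = 0.000324, 0.00064 and 8.65e-05). Ogdh, of the oxoglutarate dehydrogenase complex, fell in Th2 cells from 28.9 and 33.2 FPKM to 18.9 and 19.2 (adjusted p = 0.00284).

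**Figure D5:**
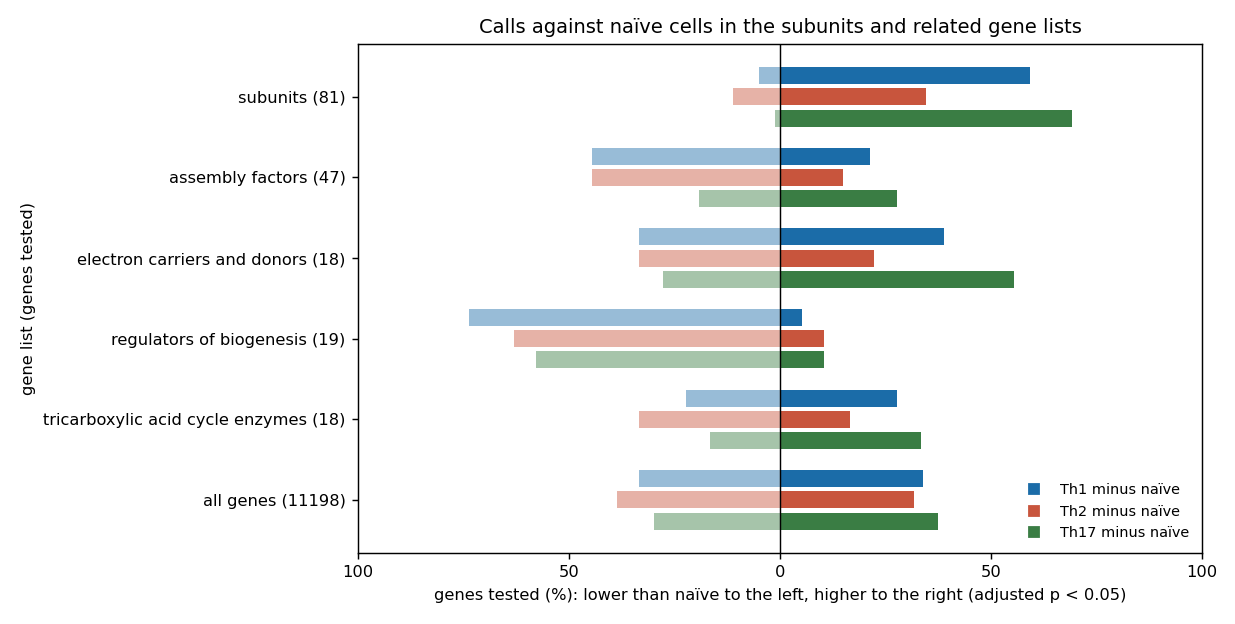
Bars are the percentage of genes tested in each list that were higher (right, full color) or lower (left, pale) than in naïve cells at an adjusted p under 0.05. The subunits lean to higher in Th1 and Th17 cells (59.3% and 69.1%), the regulators to lower (14 of 19 genes in Th1 cells), beside 33.8% higher and 33.5% lower of all genes tested in Th1 cells.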

How the data were processed

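RNA-seq was performed on 8 libraries, 2 each of naïve, Th1, Th2 and Th17 cells. The authors aligned reads of 50 bases to mm10 with TopHat 1.3.2 and Bowtie 0.12.8 and deposited 1 table of FPKM per library, made with Cufflinks 2.0.2 (versions per the submitters' processing notes). The gene annotation is not given in the sources used here, and read counts were not used here. The labels name a stranded kit and the study's methods one that does not mark strand, so reads of overlapping genes (29 of the 81 subunit genes tested) may not be told apart.

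FPKM was summed per symbol, genes with a mean of at least 1 were kept, and log2(FPKM + 1) was fitted with limma (version 3.58.1, R 4.3.3, lmFit, contrasts.fit and eBayes with a mean-variance trend) over all 8 libraries with a mean per group. Tests were two-sided, with Benjamini-Hochberg adjustment over 11198 genes and a threshold of 0.05. A ratio is that of mean FPKM, and a difference and its SE are on the log2(FPKM + 1) scale, which understates changes of low genes. On simulated data for the Th1 comparison with naïve cells (11198 genes, 200 of them given a log2 change of 2), 95% were recovered and 5.473% of calls were false. The simulated noise was independent between libraries, and the changes were larger and in fewer genes than in these data. Those rates therefore do not hold for the smaller differences given here.

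Same-numbered libraries deviated together (r = 0.138 to 0.294 over the 6 pairs of groups, for the difference between replicates), a pairing read from the data and not from the labels, so the fit with a replicate block is given where it changes a call. Alternatives tried were adding 0.1 in place of 1, no filter and a filter at 5, scaling to equal medians, quantile normalization, rescaling to a fixed sum (as TPM), only the 2 groups compared, no trend, the block, the highest row per symbol, only genes with status OK, and leaving out each library.

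The genes and lists were chosen with earlier results of these data known. Genes named were core subunits, alternative isoforms, the called gene with the largest rise and fall per complex, the 3 called genes with the largest differences in each direction between subsets, the most abundant gene per complex and, per other list, the 2 with the largest called rises and falls. Ndufs5 and Atp5k fell outside this rule and were chosen after their values or sequences were seen. Sequences were from RefSeq (GRCm38.p6). Values of 2 genes that this rule covers are not reported here.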

Additional observations from a re-analysis of the deposited data

Results flagged for a closer look

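Differences from naïve cells that differed between 2 subsets by the limma test of the subsets themselves, and by over 1 on the log2(FPKM + 1) scale, were found in 4 genes, all of complex IV. They were taken from 28, 27 and 6 called differences (Th1 against Th2, Th17 against Th2 and Th1 against Th17). Cox5a was higher in Th1 than in Th2 cells by 1.01, and Cox6b2 lower, with a difference of -1.16. Cox7a1 was higher in Th17 than in Th2 cells by 1.72 and lower in Th1 than in Th17 cells, with a difference of -2.32. Cox4i2 was lower in Th1 than in Th17 cells, with a difference of -1.02. In each of these comparisons both libraries of the higher subset lay above both of the lower subset, but the genes were chosen by these same values, so this is no further support. Groups of 2 libraries are too small to be searched for a library that stands apart.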

How the results depend on the processing

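Of the 178 differences of named genes called, none changed sign in the 19 alternatives, and of 2654 values (leaving out libraries of the groups compared only) 296 were no longer past the threshold. Counts of called subunit genes that moved by over 1.5 times were as follows. Under quantile normalization 10 genes were lower in Th1 than in naïve cells, 36 higher and 6 lower in Th17 than in naïve cells, 13 higher in Th1 than in Th2 cells and 12 higher in Th17 than in Th2 cells. Scaling to equal medians gave 5 genes lower in Th17 than in naïve cells, 7 higher in Th17 than in Th2 cells and 3 lower in Th1 than in Th17 cells. Rescaling to a fixed sum gave 3, 12 and 3 for the same counts, 14 genes higher in Th1 than in Th2 cells and 0 higher in Th1 than in Th17 cells. The fit of only the 2 groups compared, which has fewer samples, gave 0 genes lower in Th17 than in naïve cells, 11 higher in Th17 than in Th2 cells, and 0 higher and 3 lower in Th1 than in Th17 cells. Without a filter 2 genes were higher in Th1 than in Th17 cells. With the replicate block 3 genes were lower in Th17 than in naïve cells and 39 higher in Th17 than in Th2 cells. The block lost no call of a subunit gene and took the genes called from 52 to 59 in Th1, 37 to 46 in Th2 and 57 to 62 in Th17 cells against naïve cells, and between subsets, among the genes named, it added Sdhd, Uqcrq, Atp5d and Atp5e (Th1 against Th2), Ndufs5, Ndufv1 and Uqcrq (Th17 against Th2) and Ndufa4 (all 3 comparisons). The block changed no other call of a named subunit gene. Calls gained in alternatives other than the block are given for some genes only.

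Leaving out 1 library at a time, the counts higher and lower than in naïve cells ranged from 35 to 49 and 2 to 4 in Th1, 18 to 32 and 5 to 12 in Th2, and 33 to 55 and 0 to 1 in Th17 cells. Between subsets, 6 to 28 were higher and 2 to 5 lower in Th1 than in Th2 cells, 4 to 25 higher and 1 to 2 lower in Th17 than in Th2 cells, and 0 to 1 higher and 3 to 4 lower in Th1 than in Th17 cells.

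Among the other lists, the filter at a mean of 5 FPKM, which tests fewer genes, gave 11, 13 and 4 assembly factors lower in Th1, Th2 and Th17 cells and 4 electron carriers higher in Th1 cells. Quantile normalization gave 17 assembly factors lower in Th17 cells, 4 and 6 electron carriers higher in Th1 and Th17 cells, and 8 and 6 tricarboxylic acid cycle genes lower in these subsets. The block gave 15 assembly factors lower in Th17 cells and 7 electron carriers higher in Th2 cells. Rescaling to a fixed sum gave 1 regulator higher in Th2 and in Th17 cells and 3 cycle genes higher in Th1 and in Th17 cells. Scaling to medians gave 1 regulator higher in Th17 cells, as did the fit of only 2 groups, and 3 cycle genes lower in Th2 cells. Without 1 library, 10 to 20 assembly factors were lower in Th1 and 8 to 13 higher in Th17 cells, 6 to 10 electron carriers were higher and 3 to 5 lower in Th17 cells, 1 to 2 regulators were higher in Th2 and in Th17 cells, and 2 to 4 cycle genes were lower in Th1 and 1 to 3 in Th17 cells. Apart from fewer genes or samples, the cause of these moves was not tested. The filter at 5 FPKM left out Cox4nb and Atp5s. Depth could be judged only from the confidence limits of the values.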
